A study of Mus musculus with 30 samples.

Results

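Calcium release and store-operated calcium entry were described through 10 genes, Ryr2, Itpr1, Itpr2, Itpr3, Itpkb, Atp2a3, Stim1, Stim2, Orai1 and Orai2, in sorted mouse B cells. They were picked by gene symbol from the 19937 genes that the platform annotation names with a single-symbol probe set, because Ryr2 was higher in light zone cells and Orai2 in IgE plasma cells. Those 2 differences are therefore given as descriptions with no test, and so is every Orai2 difference that involves plasma cells. A single-symbol probe set was found for 9 of the 10 genes, and all 9 were bright enough to be tested in both experiments. Itpr1 was not analysed here. Orai2 had 2 probe sets, so the genes were read from 10 probe sets of the 34760 in the table.

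Calcium in a lymphocyte is stored in the endoplasmic reticulum (ER) and is let out through IP3 receptors and ryanodine receptors. When the store empties, STIM proteins in the ER membrane sense the fall and open ORAI channels in the plasma membrane, and the calcium that enters feeds calcineurin, NFAT and other effectors. SERCA pumps refill the store. Antigen receptor signalling in B cells uses this route, through phospholipase C gamma 2 and IP3.

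All mice were CeGFP BALB/c animals, with an IRES-GFP knock-in downstream of the coding part of membrane IgE, in its 3' UTR, and all were infected with the worm Nippostrongylus brasiliensis. Cells of the mesenteric lymph nodes were taken at day 10 of infection and sorted, and each array held RNA from a pool of 3 mice from a sort of its own. The p-values therefore measure the spread between pools. The first experiment (18 arrays) had IgE plasma cells (PC; IgE+ GFP+ CD95+ CD138+; 4 arrays), GFP+ IgG1 PC (2), IgE germinal centre cells (GC; IgE+ GFP+ B220+ CD95+ CD138-; 3), GFP+ IgG1 GC cells (3), GFP- IgG1 GC cells (3) and naive B cells (B220+ CD95- CD138-, with neither IgG1 nor IgE; 3). The second (12 arrays) split IgG1 GC cells into dark zone (DZ; CXCR4 high, CD86 low) and light zone (LZ; CXCR4 low, CD86 high), each as GFP+ and GFP- cells with 3 arrays. GFP is no pure IgE marker in this strain, since it also labels IgG1 cells whose silent heavy chain chromosome was rearranged to the epsilon gene. Naive cells came from the infected nodes too, so no group is from an uninfected animal.

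Values are log2 signals, and a level is compared only between arrays on the same probe set, within an experiment. A gene was called when its adjusted p was under 0.05 in limma, with Benjamini-Hochberg adjustment over the 12098 genes tested on the first 18 arrays or the 11050 tested on the 12 zone arrays. In bulk samples such as these, fewer cells of a type and less RNA per cell cannot be told apart. Marker genes checked the labels. Prdm1, the plasma cell regulator, averaged 9.87 in IgE PC and 9.59 in IgG1 PC, against 4.84 to 5.53 in the GC groups. Cd86 averaged 9.12 and 9.29 in the DZ groups against 10.27 and 10.34 in the LZ groups, whereas the other sort marker Cxcr4, at 11.21 and 11.33 in DZ against 11.04 and 10.87 in LZ, was not called. Naive replicate 1 and GFP+ IgG1 GC replicate 3 each correlated less with its own group (mean r 0.892 and 0.949) than the other arrays of that group did (0.909 and 0.91 for naive, 0.962 each for GFP+ IgG1 GC). The IgG1 PC arrays correlated at 0.934 with each other. Results that turn on them are given with and without them.

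**Figure D1:**
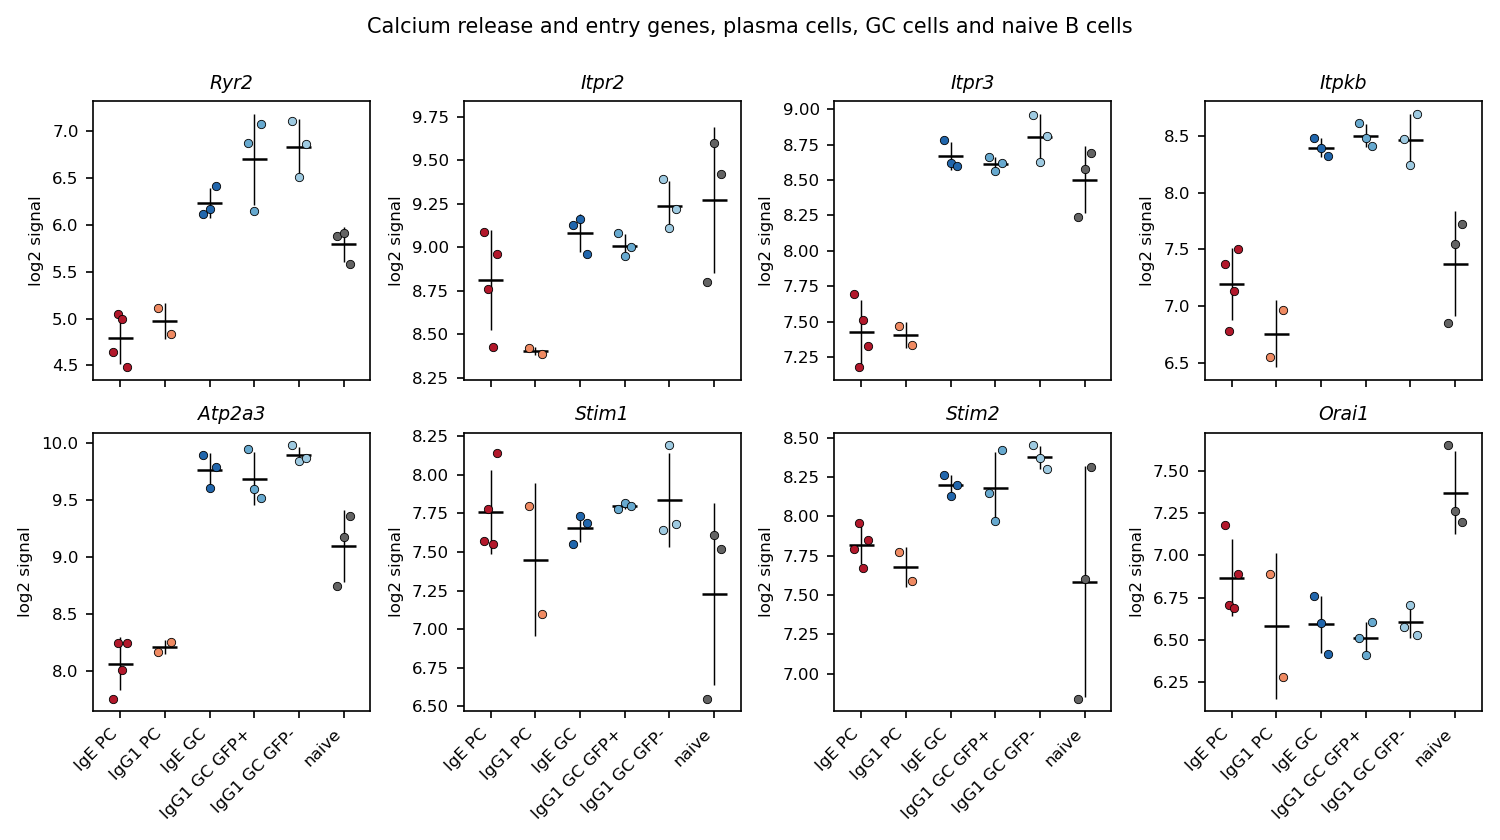
Log2 signal of 8 genes on each of the 18 arrays of the first experiment (vertical axis, 1 scale per gene) by sorted group (horizontal axis). Points are arrays, horizontal lines group means and vertical lines SD; Ryr2, Itpr3, Itpkb and Atp2a3 lay lower on every plasma cell array than on every GC array.

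Plasma cells had lower signals of a ryanodine receptor, an IP3 receptor, an IP3 kinase and a SERCA pump than GC cells of the same isotype. Of the 8 genes tested in each isotype, 4 were called lower and none higher, and they were Ryr2, Itpr3, Itpkb and Atp2a3 both times. Ryr2 passed the filter only through arrays outside the plasma cell groups, so its call lends the count no support. Of all genes tested, 13.4% were called lower and 10.2% higher in IgE PC than in IgE GC cells. In IgG1 PC, against GFP+ IgG1 GC cells, 13.1% were called lower and 8.32% higher. The median difference of the 8 genes, Ryr2 included, was -0.79 for IgE and -0.91 for IgG1, beside -0.03 and -0.01 over all genes tested. Without Ryr2 the middle gene would be Stim2 for IgE and Itpr2 for IgG1, neither of them called. With 8 genes, these counts and medians describe the genes named and no wider group.

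Ryr2 encodes the type 2 ryanodine receptor, a calcium-activated release channel best known from heart muscle. Its signal was 4.64, 5.05, 4.99 and 4.48 on the IgE PC arrays, against 6.11, 6.17 and 6.41 on the IgE GC arrays. IgG1 PC arrays read 5.11 and 4.84, against 6.87, 6.15 and 7.07 for GFP+ IgG1 GC cells. Every plasma cell array was below every GC array. The differences were -1.44 for IgE (SE 0.22, adjusted p = 9.89e-05, limma) and -1.72 for IgG1 (SE 0.26, adjusted p = 0.000123, limma). Ryr2 was above the array median on 12 of the 18 arrays, which were the GC and naive arrays, and it passed the filter through them. All 6 plasma cell arrays lay below the lowest array median of 5.284, a range in which RMA values compress differences. The size of the log2 differences is therefore uncertain, and no fold is given. The counts of genes called include Ryr2, but its calls lend them no support.

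Itpr2 and Itpr3 encode IP3 receptors, the ER channels that open on IP3. Itpr3 signal was 7.70, 7.18, 7.51 and 7.33 in IgE PC, against 8.78, 8.62 and 8.60 in IgE GC cells. In IgG1 PC it was 7.47 and 7.34, against 8.66, 8.56 and 8.62 in GFP+ IgG1 GC cells. No plasma cell array reached a GC array, and the Itpr3 difference was -1.23 for IgE (SE 0.15, adjusted p = 1.33e-05, limma) and -1.21 for IgG1 (SE 0.19, adjusted p = 0.000135). Itpr2 moved less. It stood at 9.09, 8.76, 8.43 and 8.96 in IgE PC against 9.13, 9.16 and 8.96 in IgE GC cells, groups that overlap (-0.27, SE 0.19, adjusted p = 0.361). IgG1 PC read 8.42 and 8.39 against 8.95 to 9.08 (mean 9.01) in GFP+ IgG1 GC cells; these did not overlap, but the difference of -0.61 was not called (SE 0.22, adjusted p = 0.0645). It was called, at -0.62, without the pair of arrays that stood apart (adjusted p = 0.0376).

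Itpkb encodes the B form of IP3 3-kinase, which turns IP3 into IP4 and so removes the ligand of the IP3 receptors. Its signal was 7.37, 6.78, 7.13 and 7.50 in IgE PC, against 8.48, 8.39 and 8.32 in IgE GC cells. IgG1 PC had 6.55 and 6.97, against 8.61, 8.48 and 8.41 in GFP+ IgG1 GC cells. No plasma cell array reached a GC array of its isotype, and the differences were -1.20 for IgE (SE 0.21, adjusted p = 0.000412, limma) and -1.74 for IgG1 (SE 0.25, adjusted p = 8.44e-05).

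Atp2a3 encodes SERCA3, a pump that returns calcium to the ER, mainly in blood and epithelial cells. Signals of 7.76, 8.25, 8.01 and 8.25 were read in IgE PC, against 9.90, 9.61 and 9.79 in IgE GC cells. In IgG1 PC they were 8.17 and 8.26, against 9.95, 9.60 and 9.52 in GFP+ IgG1 GC cells. Each plasma cell array was below each GC array. The Atp2a3 difference was -1.70 for IgE (SE 0.17, adjusted p = 1.32e-06, limma) and -1.48 for IgG1 (SE 0.21, adjusted p = 5.55e-05).

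The store sensors and Orai1 gave no call. Stim1 read 7.57, 7.78, 7.55 and 8.14 in IgE PC against 7.55, 7.73 and 7.69 in IgE GC cells (0.10, SE 0.25, adjusted p = 0.840), and these overlapped. Stim2, the sensor that responds to smaller falls in store calcium, read 7.79, 7.96, 7.67 and 7.85 against 8.26, 8.13 and 8.20; it was lower on every IgE PC array, but the difference of -0.38 was not called (SE 0.24, adjusted p = 0.299). Orai1, the main pore subunit of the entry channel, read 7.18, 6.71, 6.69 and 6.89 against 6.76, 6.60 and 6.42 (0.27, SE 0.18, adjusted p = 0.329). The same genes in IgG1 PC differed from GFP+ IgG1 GC cells by -0.35 (Stim1), -0.50 (Stim2) and 0.08 (Orai1), none of them called. The size of the fall from GC cells to plasma cells was compared between isotypes directly, and 0 of 8 genes differed in limma (0 at an unadjusted p under 0.05), beside 0.0909% of all genes tested. Itpkb had the widest gap between the isotypes, 0.54 (SE 0.33, adjusted p = 0.851).

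**Figure D2:**
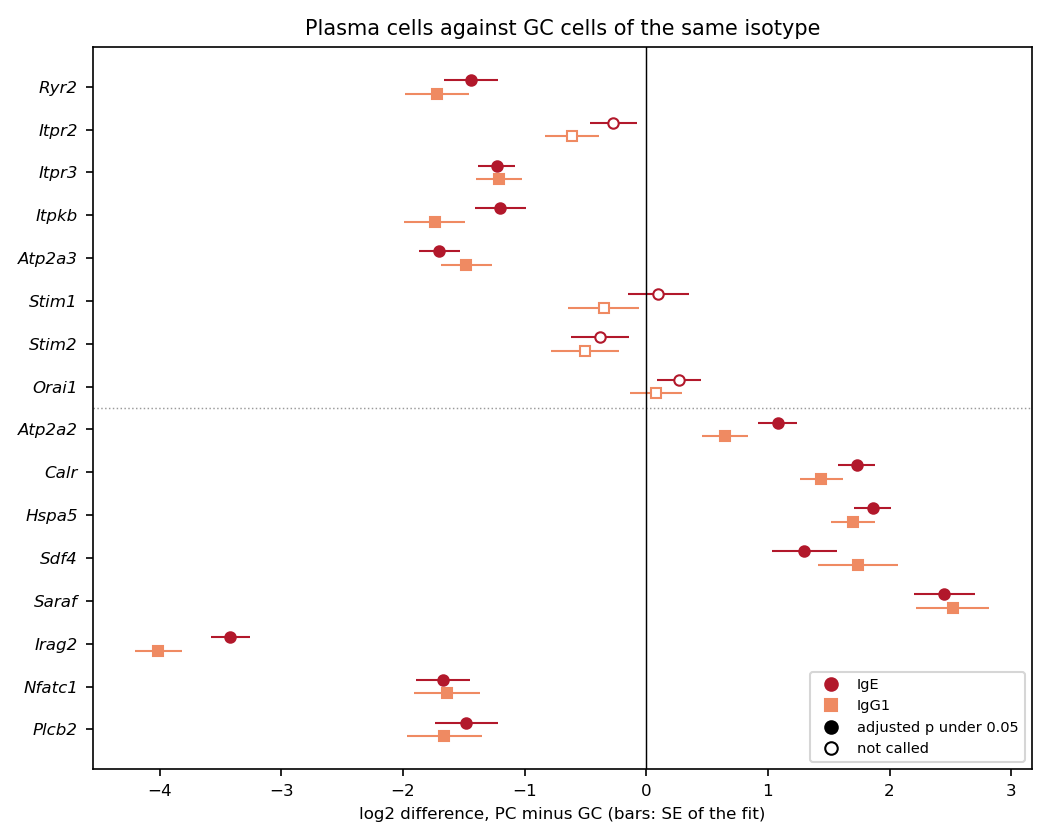
Log2 difference between plasma cells and GC cells of the same isotype (horizontal axis) for 8 calcium release and entry genes (above the dotted line) and 8 other calcium genes (below it). Circles are IgE, squares IgG1, bars the SE of the fit, and filled marks an adjusted p under 0.05; Atp2a3 lies left of 0 and Atp2a2 right of it in both isotypes.

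Other genes of calcium handling were read from a list of 70, of which 65 had a probe set and 56 were tested in the first experiment. In IgE PC, 12 were called higher and 9 lower than in IgE GC cells, beside 10.2% and 13.4% of all genes. In IgG1 PC, 7 were higher and 10 lower, beside 8.32% and 13.1%. None of the 56 was called between isotypes at either stage, beside 0% of all genes in GC cells and 0.959% in plasma cells. The calcium-binding proteins of the ER and Golgi (Calr, Canx, Hspa5 and Sdf4) rose for 4 of 4 in IgE and 3 of 4 in IgG1. Neither isotype had one lower. Calr, which encodes the luminal calcium buffer calreticulin, averaged 11.75 ± 0.09 in IgE PC (SD, n = 4), against 10.02 ± 0.17 in IgE GC cells (n = 3), a difference of 1.73 (limma, adjusted p = 1.97e-07). It was 1.44 higher in IgG1 PC (adjusted p = 1.39e-05). Hspa5, the ER chaperone BiP, was higher by 1.86 and 1.70, and Sdf4, a calcium-binding protein of the Golgi, by 1.30 and 1.74. These are also genes of the secretory pathway.

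The SERCA pumps went opposite ways. Atp2a2, which encodes SERCA2, averaged 10.89 ± 0.06 in IgE PC (SD, n = 4) against 9.80 ± 0.05 in IgE GC cells (n = 3), and 10.50 ± 0.04 in IgG1 PC (n = 2) against 9.85 ± 0.04 in GFP+ IgG1 GC cells (n = 3). It rose by 1.08 (adjusted p = 6.19e-05, limma) and 0.65 (adjusted p = 0.0200), where Atp2a3 fell. Saraf, an ER protein that slows store-operated entry, averaged 8.46 ± 0.27 in IgE PC against 6.01 ± 0.19 in IgE GC cells and was higher by 2.45 (adjusted p = 1.45e-06); in IgG1 PC it was higher by 2.52 (adjusted p = 1.04e-05). P2rx4, an ATP-gated cation channel, was higher by 1.81 in IgE PC and by 1.07 in IgG1 PC.

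Of the calcineurin, NFAT and calmodulin kinase class, 6 of 14 tested genes were lower and 1 higher in IgE PC, beside 13.4% and 10.2% of all genes. In IgG1 PC 5 were lower and 1 higher, beside 13.1% and 8.32%. Nfatc1, a calcium-regulated transcription factor, was lower by -1.67 in IgE PC and -1.64 in IgG1 PC, and the kinase kinase Camkk2 by -1.67 and -1.25. Ppp3r1, the regulatory subunit of calcineurin, was -1.73 lower in IgG1 PC, and its difference of -0.49 in IgE PC was not called. Another calcineurin subunit, Ppp3cc, was the 1 gene of the class called higher, by 0.98 in IgE PC and 1.21 in IgG1 PC. Irag2, also called Lrmp, encodes an ER membrane protein that binds IP3 receptors, and its difference was the largest fall of the list in both isotypes: 6.71 ± 0.27 in IgE PC against 10.13 ± 0.17 in IgE GC cells (-3.42, adjusted p = 4.18e-10, limma). The IgG1 difference was -4.01 (adjusted p = 7.66e-10). Plcb2, a phospholipase C that makes IP3, was lower by -1.48 and -1.66.

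The B cell marker list fell together with these genes. Its 5 genes were lower in IgE PC in 5 of 5 cases and in IgG1 PC in 4 of 5, and their summed linear signal was 5592 to 6176 in IgE PC against 15684 to 16134 in IgE GC cells. The part of this in the calcium genes was not tested. Of markers of other cell types, 1 of 5 tested myeloid and dendritic markers was higher in IgE PC and none in IgG1 PC, with a summed signal of 541 to 725 in IgE PC against 312 to 351 in IgE GC cells. Of 2 tested granulocyte and mast cell markers, 1 was higher in each isotype (summed signal of the list 152 to 385 in IgE PC against 102 to 139 in IgE GC, and 260 to 285 in IgG1 PC against 108 to 124 in GFP+ IgG1 GC cells). Of 2 tested natural killer markers, 1 was higher in IgG1 PC and none in IgE PC. Of the 5 germinal centre markers, 4 were lower in IgE PC and 3 in IgG1 PC.

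Between isotypes at the same stage, no difference was called. Of the 8 genes tested between IgE PC and IgG1 PC, 0 were called by limma and 0 had an unadjusted p under 0.05, beside 0.959% of all genes called. Itpkb was 0.44 higher in IgE PC (95% interval -0.08 to 0.95) and Itpr2 0.41 higher (-0.04 to 0.86), with 2 arrays behind the IgG1 PC values. Germinal centre markers moved with this comparison: 2 of 5 were called higher in IgE PC, with summed signals of 2237 to 2547 in IgE PC against 1730 to 1999 in IgG1 PC, and so was 1 of 4 naive B cell markers. Their part in the calcium genes, Orai2 included, was not tested. Itpr3 (0.02, interval -0.35 to 0.40) and Atp2a3 (-0.15, interval -0.56 to 0.27) had narrower ones. Between IgE GC and GFP+ IgG1 GC cells, 0 of 9 genes were called in limma, 0 had an unadjusted p under 0.05, and 0% of all genes were called (264 had an unadjusted p under 0.05). Ryr2 had the widest gap there, at 6.11, 6.17 and 6.41 in IgE GC against 6.87, 6.15 and 7.07 in GFP+ IgG1 GC cells (-0.47, SE 0.23, adjusted p = 1), with overlapping arrays. GFP+ and GFP- IgG1 GC cells likewise gave 0 of 9 calls in limma, 0 at an unadjusted p under 0.05 and 0% of all genes (265 at an unadjusted p under 0.05).

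Orai2, a second pore subunit that can lower the current of ORAI1 channels, gave different answers on its 2 probe sets, named here by their platform numbers. On probe set 10436426, which has the higher mean and stands for the gene elsewhere, IgE PC arrays read 7.60, 7.90, 8.62 and 8.93 and IgG1 PC arrays 5.74 and 5.98. This is the difference for which Orai2 was picked, 2.40 (5.28 times), and the groups do not overlap. On probe set 10534570 the IgE PC arrays read 6.24, 6.23, 6.67 and 5.92 and the IgG1 PC arrays 6.21 and 5.50. Here the difference was 0.41 and the groups overlap.

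Against GC cells the sign itself depended on the probe set. IgE GC cells read 7.34, 8.55 and 7.90 on probe set 10436426, so that IgE PC stood 0.33 higher with overlap. On 10534570 IgE GC cells read 7.22, 7.18 and 6.96, and IgE PC stood at -0.86 relative to them, with every plasma cell array below every GC array. Against naive cells the IgE PC difference was 1.09 on 10436426 and -0.82 on 10534570. For IgG1 PC against GFP+ IgG1 GC cells both sets were lower, by -1.80 and -1.28.

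**Figure D3:**
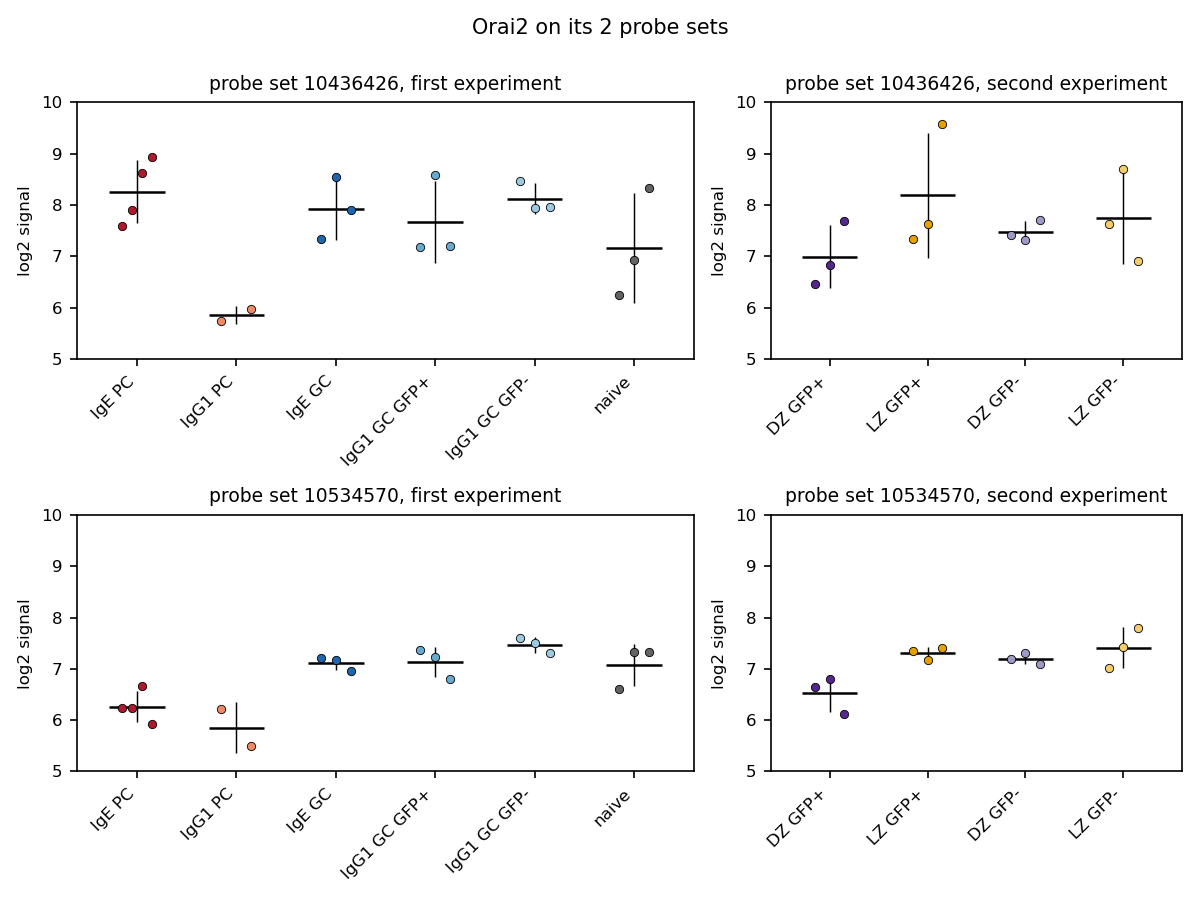
Log2 signal of Orai2 on each array (vertical axis, same range in all panels) by sorted group (horizontal axis), for probe set 10436426 (top) and 10534570 (bottom), in the first experiment (left) and the second (right). Points are arrays, horizontal lines group means and vertical lines SD; IgE PC stand near the GC groups in the top panel and below them in the bottom one.

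The probe sets also differed in spread. Within groups, 10436426 had an SD of 0.69 over the first 18 arrays, larger than in 97.4% of the genes tested. Over the 12 zone arrays it was 0.82, larger than in 99.5%. On 10534570 it was 0.31 and 0.28, near the medians of 0.29 and 0.23 over all genes. Their correlation with each other was 0.37 over the 18 arrays and 0.25 over the 12, a description over arrays that share groups. By annotation they belong to the same transcripts, sharing 6 accessions of 6 for 10436426 and of 7 for 10534570. The 10 annotated probe sets with the nearest platform numbers differed: for 10534570, 10 of 10 were among the 20 genes on each side of Orai2 in RefSeq, and for 10436426, 0 of 10 were. What 10436426 measures was not tested. Over the 18 arrays, probe set 10534570 had a correlation of 0.91 with Itpr3 and 0.85 with Atp2a3, and 10436426 of 0.20 and 0.23.

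Entry into the germinal centre was read against naive cells. Itpkb was higher and Orai1 lower in all 3 GC groups; Atp2a3 was called higher in all 3, Ryr2 in both IgG1 groups and Stim2 in GFP- IgG1 GC cells alone. Of the 9 genes, IgE GC cells had 2 higher and 1 lower, near the shares of 19.3% and 7.40% of all genes. GFP+ IgG1 GC cells had 3 higher and 1 lower (16.8% and 6.43% of all genes), and GFP- IgG1 GC cells 4 higher and 1 lower (20.5% and 9.35%). These comparisons share the naive arrays and are not separate evidence. With 9 genes, the counts describe the genes named and no wider group.

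Itpkb was at 8.48, 8.39 and 8.32 in IgE GC cells, 8.61, 8.48 and 8.41 in GFP+ and 8.47, 8.24 and 8.69 in GFP- IgG1 GC cells, against 6.85, 7.55 and 7.72 in naive cells. No GC array overlapped a naive one, and the differences were 1.02, 1.12 and 1.09 (SE 0.23 each; limma adjusted p = 0.00309, 0.00168 and 0.00198). IgE PC differed from naive cells by -0.18 (SE 0.21, adjusted p = 0.533), with overlap.

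Orai1 read 6.76, 6.60 and 6.42 in IgE GC cells, 6.51, 6.41 and 6.61 in GFP+ and 6.58, 6.71 and 6.53 in GFP- IgG1 GC cells, against 7.65, 7.26 and 7.20 in naive cells. Every GC array was below every naive array. The differences were -0.77, -0.86 and -0.76 (SE 0.19 each; limma adjusted p = 0.00589, 0.00307 and 0.00663). In IgE PC it was -0.50 relative to naive cells (SE 0.18, adjusted p = 0.0343), a call lost without naive replicate 1 (-0.36, adjusted p = 0.155) or without any one of IgE PC replicates 2, 3 and 4 (adjusted p 0.0544 to 0.0886).

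Ryr2 in naive cells read 5.88, 5.91 and 5.58, between the GC and the plasma cell arrays. GFP- IgG1 GC cells, at 7.11, 6.51 and 6.86, were higher by 1.04 (SE 0.23, adjusted p = 0.00357, limma), and GFP+ IgG1 GC cells by 0.91 (SE 0.23, adjusted p = 0.00931). The GFP+ call was lost without the pair of arrays that stood apart (0.76, adjusted p = 0.0608) and when only both groups compared were fitted (adjusted p = 0.0718). IgE GC cells were 0.44 above naive cells without overlap, and this was not called (SE 0.23, adjusted p = 0.176). IgE PC arrays lay below all naive arrays (adjusted p = 0.00171), with their signal below the array medians as above. By mean, the order was thus GFP- IgG1 GC (6.83 ± 0.30, SD, n = 3), GFP+ IgG1 GC (6.70 ± 0.49, n = 3), IgE GC (6.23 ± 0.16, n = 3), naive (5.79 ± 0.18, n = 3) and, last and in no order of their own, both plasma cell groups (4.79 ± 0.27 in IgE PC, n = 4, and 4.97 ± 0.19 in IgG1 PC, n = 2). Of the neighbours in that order that were tested, GFP+ against GFP- IgG1 GC, IgE against GFP+ IgG1 GC and IgE GC against naive were not called.

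Atp2a3 read 8.75, 9.18 and 9.36 in naive cells, below all GC arrays. It was 0.67 higher in IgE GC, 0.59 in GFP+ and 0.80 in GFP- IgG1 GC cells (SE 0.19 each; limma adjusted p = 0.0135, 0.0276 and 0.00433). The first 2 of these calls were lost without naive replicate 1 (0.50 and 0.42; adjusted p = 0.0642 and 0.125) and after a further quantile normalization (0.42 and 0.41; adjusted p = 0.107 and 0.127). The IgE call was also lost without IgE GC replicate 1 (0.60, adjusted p = 0.0523), and the GFP+ call without GFP+ IgG1 GC replicate 1 (0.46, adjusted p = 0.135) or replicate 2 (0.64, adjusted p = 0.0526). IgE PC were below naive cells by -1.03 (SE 0.17, adjusted p = 0.000157). Itpr3, at 8.24, 8.58 and 8.69 in naive cells, did not differ from them by the test in any GC group (0.11 to 0.30) and was -1.07 in IgE PC (SE 0.15, adjusted p = 3.45e-05). In IgE PC, 4 of 8 genes (Ryr2, Orai1, Itpr3 and Atp2a3) were lower than in naive cells and none higher, beside 14.1% and 23.0% of all genes. The Ryr2 call lends this count no support, since Ryr2 passed the filter only through GC and naive arrays. The Orai1 call was lost in the runs named above.

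Stim2 in naive cells was spread over 6.84, 7.60 and 8.31, and replicate 1 was the lowest. Its one call, 0.79 in GFP- IgG1 GC cells (SE 0.25, adjusted p = 0.0282), came with overlapping arrays and was lost without that naive array (0.42, adjusted p = 0.139), as without any one of the GFP- IgG1 GC arrays (adjusted p 0.0562 to 0.0803). Stim1 also had its lowest array there, 6.55 against 7.61 and 7.52 in the other naive arrays, and no Stim1 difference from naive cells was called. Without naive replicate 3, the brightest for Stim2, the Stim2 differences were called in IgE GC (0.98), GFP+ IgG1 GC (0.96) and IgE PC (0.59). Without naive replicate 2, those of Stim1 were called in GFP- IgG1 GC (0.80) and IgE PC (0.73). Orai2 on probe set 10436426 was called in none of the GC groups with all arrays, and without naive replicate 3 it was called in IgE GC (1.34) and GFP- IgG1 GC cells (1.54). On probe set 10534570 the Orai2 differences from naive cells were 0.04 in IgE GC, 0.06 in GFP+ and 0.39 in GFP- IgG1 GC cells, none of them called. Itpr2 was not called in any GC group; its IgE PC difference of -0.46 (adjusted p = 0.0639) was called without naive replicate 1 (-0.70, adjusted p = 0.00488), without IgE PC replicate 1 (-0.55, adjusted p = 0.0392) and after a further quantile normalization (-0.76, adjusted p = 0.00392).

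Of the 56 other calcium genes, 16 were higher and 5 lower in IgE GC than in naive cells, beside 19.3% and 7.40% of all genes. The counts were 11 and 5 in GFP+ IgG1 GC (16.8% and 6.43% of all genes) and 14 and 5 in GFP- IgG1 GC cells (20.5% and 9.35%). Calm3, a calmodulin gene, rose by 2.74, 2.87 and 2.69, Inpp1, an inositol phosphatase, by 1.46, 1.55 and 1.49, and Atp2a2 by 1.08, 1.13 and 0.98. P2rx4 was lower by -1.78, -1.93 and -1.36, and Esyt1, an ER to plasma membrane tether, by -1.30, -1.66 and -1.47. IgE PC had 16 higher and 6 lower than naive cells, beside 23.0% and 14.1% of all genes, with Saraf highest (3.23) and Irag2 lowest (-3.08). Naive arrays also carried more signal of other cell types. Of 5 tested myeloid and dendritic markers 3 were lower in each GC group, with summed signals of 252 to 354 in GC arrays against 549 to 987 in naive arrays. The stromal and endothelial list of 6 summed to 294 to 506 in GC arrays against 808 to 1539 in naive arrays, but only 1 of the 6 was called lower in each GC group. Of 4 tested T cell markers, 1 was lower in IgE GC, 3 in GFP+ and 2 in GFP- IgG1 GC cells, and none was higher. The summed T cell signals overlapped, at 180 to 376 in GC arrays against 250 to 434 in naive arrays. The part of these cells in the naive levels of the calcium genes was not tested.

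**Figure D4:**
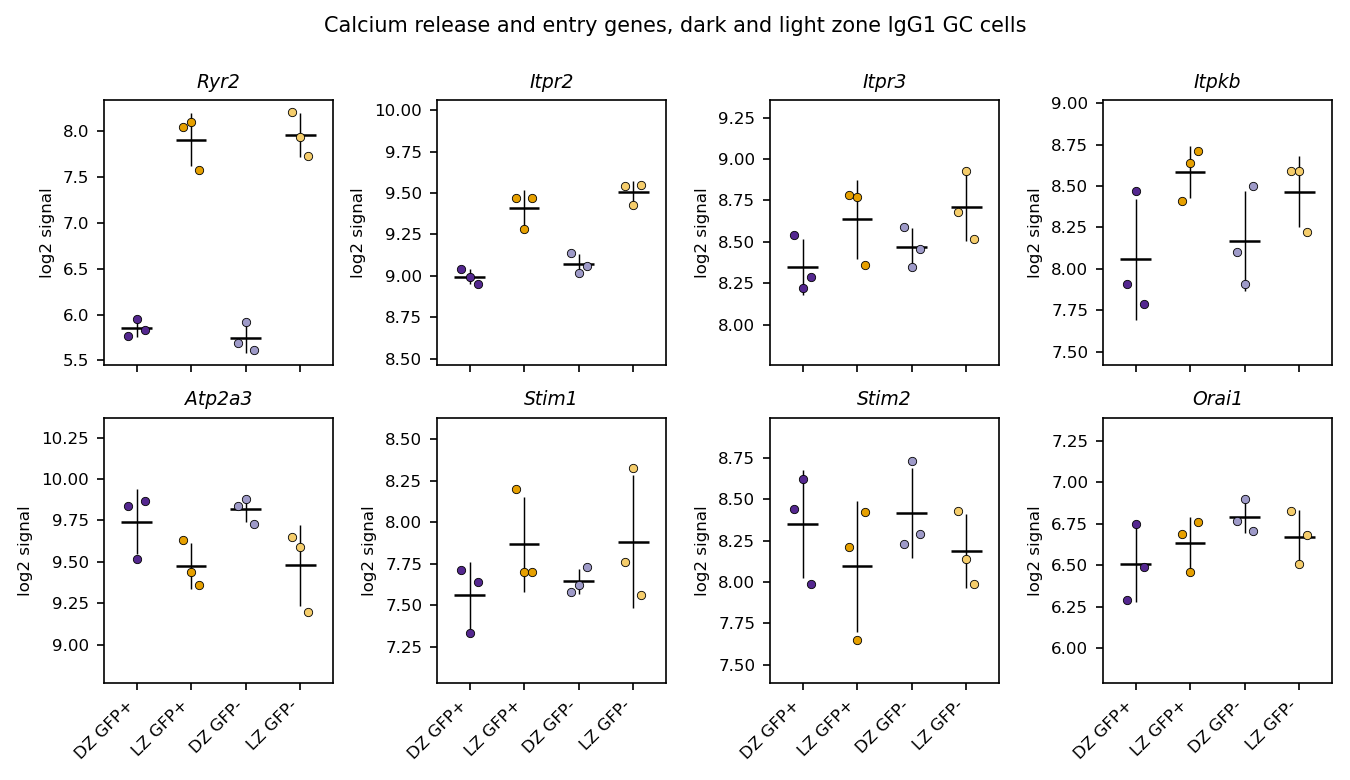
Log2 signal of 8 genes on each of the 12 arrays of the second experiment (vertical axis, 1 scale per gene) by zone and GFP group (horizontal axis). Points are arrays, horizontal lines group means and vertical lines SD; Ryr2 lies at 5.61 to 5.95 on the DZ arrays and 7.58 to 8.21 on the LZ arrays, and Itpr2 separates the zones on a smaller scale.

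Within the IgG1 germinal centre, Ryr2 was the gene for which the set was picked, so its zone values are a description. GFP+ DZ arrays read 5.77, 5.95 and 5.83 and GFP+ LZ arrays 8.05, 8.10 and 7.58. GFP- DZ arrays read 5.69, 5.92 and 5.61 and GFP- LZ arrays 8.21, 7.94 and 7.73. The zones were set apart by more than the whole range within either one, with a DZ minus LZ difference of -2.06 in GFP+ and -2.22 in GFP- cells. Over both, the signal in DZ was 4.41 times lower. The DZ values lay close above the medians of their arrays (5.29 to 5.36), where differences are compressed, so this size is uncertain.

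Of the 8 genes tested between zones, 1 was called, Itpr2, beside 3.00% of all genes called lower and 3.92% called higher in DZ. Itpr2 read 9.04, 8.99 and 8.95 in GFP+ DZ against 9.47, 9.28 and 9.47 in GFP+ LZ cells. In GFP- cells it was 9.14, 9.02 and 9.06 in DZ against 9.54, 9.43 and 9.55 in LZ. All 6 DZ arrays were below all 6 LZ arrays, and the difference was -0.42 (SE 0.08, adjusted p = 0.00983, limma), or 1.34 times lower. The SD of Itpr2 within these groups was 0.07, smaller than in all but 0.498% of the genes tested.

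The other genes overlapped between zones. Itpkb was at 7.79 to 8.50 (median 8.01) in DZ against 8.22 to 8.71 (median 8.59) in LZ, a difference of -0.41 that was not called (SE 0.15, adjusted p = 0.116). Without GFP+ DZ replicate 2 it was called, at -0.52 (adjusted p = 0.0436). Itpr3 was -0.26 (SE 0.12, adjusted p = 0.212) and Stim1 -0.27 (SE 0.15, adjusted p = 0.315), while Atp2a3 was 0.30 (SE 0.11, adjusted p = 0.133) and Stim2 0.24 (SE 0.16, adjusted p = 0.426). Orai1 had no difference at 2 decimals (95% interval -0.24 to 0.23). On Orai2 both probe sets were lower in DZ, -0.73 on 10436426 and -0.50 on 10534570, and neither was called with each probe set as its own feature (adjusted p = 0.314 and 0.0668). At an unadjusted p under 0.05 there were 4 of the 8 genes, and 2393 of the 11050 genes tested.

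Of 54 other calcium genes tested here, 2 were higher in DZ and none lower, beside 3.92% and 3.00% of all genes, so the count is no more than the background. Calm3 averaged 10.08 ± 0.08 over the 6 DZ arrays and 9.26 ± 0.35 over the 6 LZ arrays (mean ± SD), higher by 0.82 (limma, adjusted p = 0.00123), and Calm2 was higher by 0.37 (adjusted p = 0.0271). Irag2 was -0.30 (adjusted p = 0.0995). GFP+ and GFP- cells gave 0 of 9 calls over both zones in limma, 0 with an unadjusted p under 0.05 and 0% of all genes (519 unadjusted). The zone difference did not differ between GFP+ and GFP- cells by the test for any of the 9 genes (0 calls, 0 unadjusted, 0% of all genes; 543 unadjusted). The LZ arrays carried more naive B cell marker signal, with 2 of 4 such markers lower in DZ (2087 to 2523 in DZ against 3414 to 4582 in LZ, summed). The DZ arrays carried more plasma cell list signal, with 3 of 4 tested markers higher in DZ and 1 lower (3653 to 4330 in DZ against 2290 to 3014 in LZ, summed), and 2 of 5 germinal centre markers were higher in DZ. The part of these lists in the Itpr2 difference was not tested.

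The genes most like Ryr2 were ranked by Pearson correlation over arrays, which share groups, so no p is given. Over the 18 arrays and 12097 genes the nearest were Lacc1 (0.95), Zbtb25, Bcl6, Cd86 and Apobec1 (0.93 each). Over the 12 zone arrays and 11049 genes they were Xylt1 (0.98), Samsn1, Dock10, Syne1 (0.97 each) and Pxk (0.96). No gene was in both lists. For Orai2 the nearest over the 18 arrays were Rpsa (0.85), Traf7, Yars2, Mpp5 and Urb1 on 10436426, and Uvrag, Senp1, Slc6a6, Tut4 and Vps13a (0.94 each) on 10534570. Over the 12 arrays they were Kctd18 (0.88), Usp21, Ilvbl, Ccar2 and Csgalnact2 on 10436426, and Sgk3 (0.86), Cd84, Snord47, Clec16a and Kansl1l on 10534570.

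Promoters from RefSeq (build GRCm38.p6), 250 bases before to 50 after the start, were at hand for 9 of the genes and were searched on both strands for 5 motifs. CAGGTG, the E protein motif, was in 3 of 9, against 20.2% of all promoters, and these were Ryr2, Itpr2 and Orai2. They are shown because Ryr2 and Itpr2 were the genes set apart between zones. That choice rests on these same data, and any part of the motif in the zone differences was not tested. Capitals mark the motif, which reads CACCTG where it lies on the opposite strand, and each gene is on the minus strand. The windows are chr13:12107030-12107059 for Ryr2, chr6:146502174-146502200 for Itpr2 and chr5:136170813-136170842 for Orai2, written 5′ to 3′ along the gene.
Ryr2: tcaggaagggcaCAGGTGcaggggatggct
Itpr2: cgtgggcaccgcCACCTGgtctaaaga
Orai2: cctggacccaccCACCTGggtcccacgagg
GCGTGGG, of EGR factors, was in 4 of 9 (Itpr2, Orai1, Orai2 and Stim2) against 5.0% of all promoters, with no matching for base composition. ACGTGG, of XBP1, was in 2 (Itpr3 and Orai2) against 8.3%, TGGAAA, of NFAT, in 1 (Itpkb) against 21.4%, and GAAAGTG, of PRDM1, in 0 against 4.8%. These are matches of letters within the window and carry no measurement of binding.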

How the data were processed

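The deposited values are log2 signals of Mouse Gene ST arrays. The authors made them by RMA, which corrects background, equalizes the arrays' distributions and summarizes probes, in R 2.15.2 (source: the submitters' processing notes). Per the labels' protocols, amplification started from 2 ng of RNA, and 5 ug of cDNA was labelled. No source used here says whether both experiments were normalized together. A change in total RNA per cell is not seen on this scale, and dim genes have compressed differences.

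Of 34760 probe sets, 21640 had 1 gene symbol, 1321 several and 11799 none listed. For a gene with several probe sets, the brightest on average over the 30 arrays was used. A gene entered the tests if it exceeded the array median (5.284 to 5.473 across arrays) on 2 or more of the first 18 arrays, or on 3 or more of the 12 zone arrays. Linear models over all arrays of an experiment were fitted with limma 3.58.1 (lmFit, eBayes) in R 4.3.3, with Benjamini-Hochberg adjustment in each of 13 comparisons, after a test on simulated data. Precision is limited by group sizes of 2 to 4 arrays.

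The genes and lists were chosen with earlier results of these data known. Named were all 10 genes; from the calcium list, up to 4 called genes with the largest difference each way per comparison; and the 5 genes most correlated with Ryr2 and with Orai2. Values outside that rule were chosen after they were seen. Examples are those of Ppp3cc, and those of Atp2a2, Camkk2, Sdf4, P2rx4 and Irag2 set beside another comparison. Replicate numbers were checked as pairs. In GFP+ against GFP- IgG1 GC cells the correlations of deviations ran from 0.11 to 0.15, and the block gave 0 calls there as well; elsewhere not every pair passed 0.1. Alternatives were a further quantile normalization, 2 other filters, fits of only the groups compared, array weights, a trended robust prior, each probe set as a feature, a replicate block and leaving out arrays.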

Additional observations from a re-analysis of the deposited data

Results flagged for a closer look

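Among 30 sets of 4 to 10 arrays of these probe sets, 1 held an array far from the rest. Stim1 in the 6 DZ arrays read 7.33 on GFP+ DZ replicate 2, and the next lowest array read 7.58. Chance gives such a gap in about 1 of 20 sets.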

How the results depend on the processing

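Both plasma cell counts against GC cells (4 of 8 genes each) stayed at 4 in every alternative run but 1: without the pair of arrays that stood apart, IgG1 PC had 5, with Itpr2 added. Both counts include Ryr2, and their stability lends its call no support. Read on the other Orai2 probe set, an alternative added after seeing the data, Orai2 changed sign in IgE PC against IgE GC cells (-0.86) and against naive cells (-0.82). The count for GFP+ IgG1 GC against naive cells was 2 instead of 4 when only the groups compared were fitted, and also 2 without the pair of arrays that stood apart, a setting chosen after seeing the data; fewer arrays entered both fits. Leaving out 1 array at a time, calls ranged from 2 to 5 for IgE GC against naive cells, 3 to 5 for GFP+ IgG1 GC, 4 to 6 for GFP- IgG1 GC and 3 to 5 for IgE PC against naive cells, and 1 to 2 between zones; the other counts did not move. With the replicate number as a block, the calls over 13 comparisons summed to 25, as without it. The numbers paired arrays by the check in 1 comparison only. After a further quantile normalization the calls summed to 23, and the split of all genes against naive cells moved to 1836 higher and 1113 lower in IgE GC (2335 and 895 without it) and to 2378 and 2140 in IgE PC (2779 and 1701 without it). Of the results for single genes, 633 kept direction and side of the threshold, 30 lost a call, 14 gained one, and 4 were Orai2 on the other probe set: both sign changes above, IgE against IgG1 PC at 0.41 and the difference between the isotypes' plasma cell changes at 0.43. Signal near the floor limits Ryr2 in plasma cells.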
